A study of Drosophila melanogaster with 3 samples.

Results

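The peaks described here are the promoter peaks of pdm3-GFP that belong to a single gene. They are the peaks of the authors' pooled, reproducible list on dm6, called the optimal list here, whose summit is at most 500 bp away from a protein-coding start site, with no start site of any second protein-coding gene in the 1 kb on either side. The rule took 1476 of the 8164 optimal peaks, 18.1% (95% Wilson interval 17.3 to 18.9%), at 1208 genes. A further 812 peaks, 9.95%, met the 500 bp limit but had start sites of several genes within 1 kb and are called shared promoter peaks, and the other 5876 peaks lay farther from start sites. Some of the single-gene promoter peaks were different summits of 1 interval, with 1465 intervals for the 1476 peaks. The rule used positions and annotation only, and not signal values, the side of the start site, sequence or gene function. It does limit which genes can enter, because genes with close neighbours can fall outside it.

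The libraries are ChIP-seq of entire Drosophila melanogaster white prepupae, males and females pooled, of the strain pdm3-GFP, a stably transgenic line that expresses pdm3 with GFP fused to its C-terminus. The labels give the age as unknown. All 3 biological replicates carry the same transgene and come from the same donor line, and they form 1 group, with no untagged or untreated group analysed here. Fragments of 200 to 800 bp, made by sonication, were pulled down with anti-GFP antibody, so the peaks report the fusion protein in all tissues of the animal at once and cannot be assigned to a cell type.

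Pdm3 is a POU-homeodomain transcription factor, a protein that contacts DNA through a POU-specific domain and a homeodomain, and it is known in the fly from olfactory neurons, whose identity it helps to set. Promoters recruit RNA polymerase at the start site, and many fly promoters carry short core elements there, such as the TATA box and the Initiator, or words bound by factors of housekeeping promoters such as Dref and M1BP. Upstream of the start site, GAGA factor, the product of Trl, binds repeats of GA and keeps many developmental promoters accessible. White prepupae stand at the onset of metamorphosis, when a pulse of the steroid ecdysone starts the replacement of larval by adult tissues.

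The summits of the highest peaks are shown first, because they carry the highest signal values of the class in the pooled list. Each sequence is RefSeq's dm6 assembly from 50 bases before to 50 bases after the summit, read 5′ to 3′ along the strand of the gene. In this first set matches to the searched words of 6 or more letters are in capitals. In the later sets only the word named for the set is in capitals, and other searched words stay in lower case. CG14100 is shown on the minus strand at chr3L:19590573-19590673, larp on the minus strand at chr3R:28326542-28326642, CG18549 on the plus strand at chr3R:12449117-12449217 and ph-p on the minus strand at chrX:2137276-2137376. CG18549 held a homeodomain word and a TATA word, and the other 3 held none of the searched words of that length.
CG14100: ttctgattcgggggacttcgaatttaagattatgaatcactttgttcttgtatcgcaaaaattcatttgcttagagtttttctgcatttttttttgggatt
larp: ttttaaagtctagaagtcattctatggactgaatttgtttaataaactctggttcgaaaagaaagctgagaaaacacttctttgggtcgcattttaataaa
CG18549: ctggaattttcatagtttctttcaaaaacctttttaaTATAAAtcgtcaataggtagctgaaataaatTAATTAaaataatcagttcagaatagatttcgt
ph-p: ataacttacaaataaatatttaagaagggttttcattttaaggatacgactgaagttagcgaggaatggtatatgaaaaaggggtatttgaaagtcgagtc

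The next set is shown because it holds TATCGATA, the word bound by Dref and known as DRE, here in capitals. Among the higher of such peaks were those of eEF1gamma, a translation elongation factor gene (plus strand, chr3R:29220048-29220148), Rnp4F, for an RNA-binding protein of splicing (minus strand, chrX:5322651-5322751), RpS10b, a ribosomal protein gene (plus strand, chrX:19597949-19598049), and CG2200 (plus strand, chrX:13094290-13094390).
eEF1gamma: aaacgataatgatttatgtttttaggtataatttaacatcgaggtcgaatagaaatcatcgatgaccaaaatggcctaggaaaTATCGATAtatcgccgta
Rnp4F: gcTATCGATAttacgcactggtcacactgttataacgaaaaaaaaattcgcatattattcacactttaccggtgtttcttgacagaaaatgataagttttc
RpS10b: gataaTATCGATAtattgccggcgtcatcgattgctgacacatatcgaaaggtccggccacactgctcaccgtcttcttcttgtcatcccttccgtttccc
CG2200: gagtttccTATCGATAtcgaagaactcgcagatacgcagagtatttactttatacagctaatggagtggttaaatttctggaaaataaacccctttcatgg

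The third set is shown because it holds ATGCAAAT, the octamer word of POU factors, in capitals in either orientation. It consists of the 4 highest such peaks: Hsp27, a small heat shock gene (plus strand, chr3L:9383876-9383976), aay, for a phosphoserine phosphatase (plus strand, chr3L:9422990-9423090), bbx, for a protein with an HMG domain (plus strand, chrX:21367779-21367879), and CG6330 (minus strand, chr3R:26953635-26953735).
Hsp27: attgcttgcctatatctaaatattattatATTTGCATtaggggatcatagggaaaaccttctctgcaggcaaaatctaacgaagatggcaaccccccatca
aay: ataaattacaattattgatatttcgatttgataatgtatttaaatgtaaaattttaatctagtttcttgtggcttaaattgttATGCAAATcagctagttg
bbx: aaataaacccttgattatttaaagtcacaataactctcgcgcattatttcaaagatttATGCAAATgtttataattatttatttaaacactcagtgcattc
CG6330: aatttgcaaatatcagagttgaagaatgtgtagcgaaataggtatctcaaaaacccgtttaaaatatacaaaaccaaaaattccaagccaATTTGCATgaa

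The last set shows GAGAG, the word of GAGA factor, in capitals in either orientation, because this word was more frequent in single-gene than in shared promoter peaks in every replicate's own list. It was present in the window of bbx above and in those of papi, for a Tudor protein of the piRNA pathway (plus strand, chr2L:2221742-2221842), and cbt, for a zinc-finger transcription factor (minus strand, chr2L:480021-480121).
papi: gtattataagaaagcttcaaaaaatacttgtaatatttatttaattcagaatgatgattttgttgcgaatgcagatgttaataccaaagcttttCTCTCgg
cbt: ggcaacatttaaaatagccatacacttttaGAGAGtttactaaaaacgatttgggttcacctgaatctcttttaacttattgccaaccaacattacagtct

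For each replicate the authors deposited 30000 candidate peaks, and the 8164 candidates of highest signal value, as many as the optimal list has, are called its top list below. The signal value is the authors' own value per peak, its scale is not given in the sources used here, so it is used for ordering peaks inside 1 list. Read numbers are not in the lists, which leaves the sequencing depth unknown, and the Wilson intervals describe counting error alone, taken over peaks or genes. Where values of the 3 replicates are compared within lists, an exact sign-flip permutation test cannot give a two-sided p under 0.25, so no difference here can pass 0.05, and the SD measures the spread between these 3 samples. Replicate 2 stood apart: 89 single-gene promoter peaks were not covered over 50% of their length by any of its candidates, against 41 in replicate 1 and 34 in replicate 3, and its own promoter summits lay nearer to start sites.

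The highest of the single-gene promoter peaks was also the highest of the whole list. It lay at CG14100 (3L 19590403 to 19590846, signal value 4114), with its summit 99 bp upstream of the start site, and ranked 1, 3 and 1 in replicates 1, 2 and 3. The next were at larp, which encodes an RNA-binding regulator of translation (signal value 2940, ranks 11, 8 and 8), at CG18549 (2585, ranks 18, 14 and 19) and at ph-p, the proximal polyhomeotic gene of the Polycomb group (2408, ranks 24, 15 and 16). Beyond these, the 25 highest peaks covered in all 3 replicate lists held genes of varied function. Metabolic genes among them were Gapdh2, a glycolytic enzyme gene (signal value 1793, ranks 57, 36 and 46), GstE13, a glutathione S-transferase gene (2330, ranks 20, 24 and 23), Lpin, for a phosphatidate phosphatase (1555, ranks 73, 67 and 62), aay (1374, ranks 87, 155 and 71) and Hexo2, for a hexosaminidase (1361, ranks 103, 116 and 81). Transcription regulators among them were Sox14, an ecdysone-responsive Sox factor gene needed in metamorphosis (1938, ranks 45, 42 and 33), bbx (1371, ranks 72, 107 and 119) and cbt (1356).

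Hsp27 had a signal value of 1966 and ranks 31, 70 and 29, and its rank in replicate 2 was the lowest of the 3. Kinase genes among the 25 were gish, for a casein kinase (2111, ranks 33, 28 and 30), and Btk, for a tyrosine kinase (1364, ranks 98, 100 and 94). Others were Fkbp14, for a peptidyl-prolyl isomerase (2041, ranks 41, 46 and 27), papi (1797, ranks 51, 40 and 48), Trp1, for a part of the protein translocation machinery (1795, ranks 49, 38 and 53), Hpf1, for a histone PARylation factor (1757, ranks 52, 49 and 44), and Rtnl1, a reticulon gene (1531, ranks 58, 50 and 103). The remaining 5, CG1888, CG31145, CG13921, Tina-1 and brwl, had signal values from 1356 to 2342. All 25 stayed within rank 103 in replicate 1, 155 in replicate 2 and 119 in replicate 3. Their summits lay upstream of the start site in 24 of 25 cases, at a median of −177 bp, the exception being GstE13 at 81 bp downstream, and 0 of them held the DRE word.

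**Figure D1:**
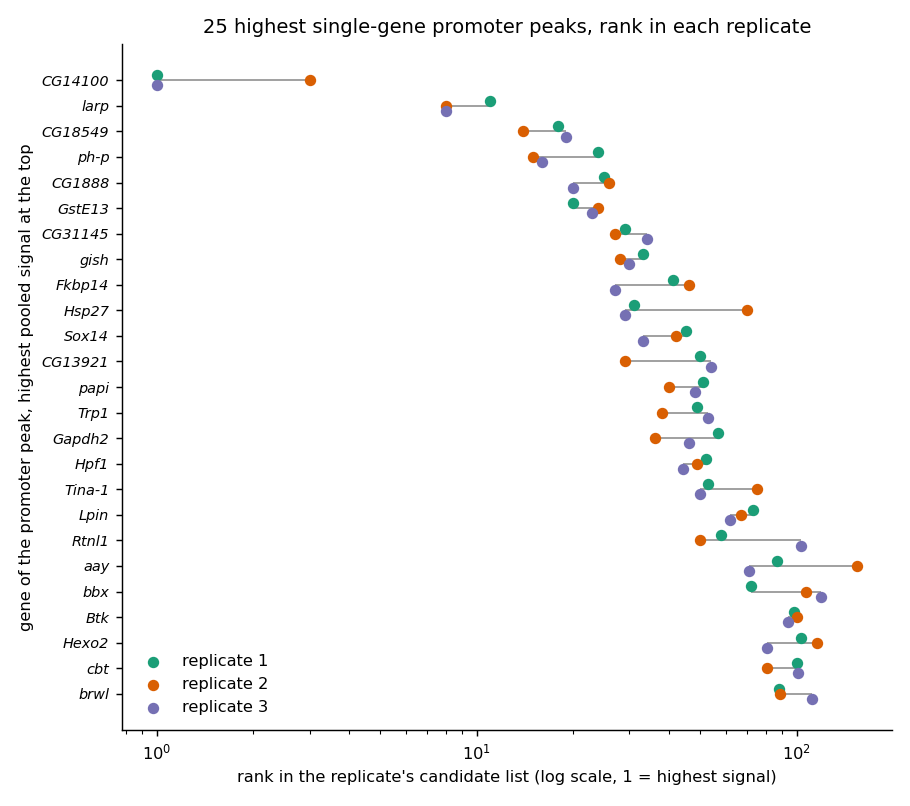
Rank (log scale, 1 is the highest signal) of the 25 highest single-gene promoter peaks in the candidate list of each replicate, with 1 row per gene, 1 point per replicate and a line over the range. The ranks run from 1 to 155, and Hsp27 and aay show replicate 2 well below the other replicates, at 70 and 155.

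Values on both sides of the 500 bp limit are given as a description. The 3 peaks just inside, all with the summit 500 bp from a start site, were at CG32512 (signal value 642, upstream), Ak3, an adenylate kinase gene (108, downstream), and CG15203 (91.5, downstream). The 3 just outside, all at 501 bp, were nearest to mtd (150), CG3919 (125) and CG43815 (118). Between 450 and 500 bp there were 96 single-gene promoter peaks with a median signal value of 175, and between 501 and 550 bp there were 85 peaks of the same kind with a median of 171.

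Signal of the single-gene promoter peaks stood between that of the other classes. Their median signal value was 186 (quartiles 123 and 363), against 240 for shared promoter peaks and 165 for the peaks farther from start sites, and 53.3% of them were in the higher-signal 50% of the list, against 66.4% of shared promoter peaks and 46.9% of the farther ones. Of the 100 highest peaks 25 were single-gene promoter peaks, 32 were shared promoter peaks and 43 lay farther away. The replicates gave the same order. Among peaks covered by a replicate's list, the median rank of single-gene promoter peaks was 3578, 3475 and 3600.5 in replicates 1, 2 and 3 (3551 ± 66.9, SD, n = 3), against 2777, 2834 and 2590.5 for shared promoter peaks (2734 ± 127, SD, n = 3). The ranges did not overlap, and the difference of 817 ± 185 ranks, a lower standing of single-gene peaks, had the same sign in 3 of 3 replicates (exact sign-flip permutation test, two-sided p = 0.25). Within the higher-signal 50% of the list it came to 73 ranks. All peaks other than the single-gene promoter peaks had median ranks of 4167.5, 4202 and 4239.5, and the difference was −652 ± 69.6 ranks, a higher standing of the single-gene peaks in 3 of 3 replicates (exact sign-flip permutation test, two-sided p = 0.25).

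Most of these peaks were found again in each library. All 3 whole candidate lists covered 1324 of the 1476 single-gene promoter peaks over at least 50% of their length, 89.7%, with 91.2% for all optimal peaks and 83.6% for shared promoter peaks. All 3 top lists covered 950 of them, 64.4% (Wilson interval 61.9 to 66.8%), with 62.3% for all optimal peaks, so neither share stood far from that of the whole list. The optimal list was selected for reproducibility in these same libraries. Single top lists covered 84.1%, 80.6% and 87.1% of single-gene promoter peaks in replicates 1, 2 and 3, against 90.1%, 76.8% and 92.2% of shared promoter peaks. Replicate 2 was lowest in both classes, and it alone put the single-gene peaks above the shared ones. The difference was −2.49 ± 5.45 percentage points (SD, n = 3; exact sign-flip permutation test, p = 0.5), and −5.63 without replicate 2, −0.703 without replicate 1 and −1.15 without replicate 3. Against all other optimal peaks, covered at 86.1%, 77.7% and 85.4%, it was 0.876 ± 2.56 percentage points (exact sign-flip permutation test, p = 0.75), −0.159 without replicate 2 and 2.31 without replicate 1.

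Of the single-gene promoter peaks that a list failed to cover, 84 were missed by replicate 2 alone, 31 by replicate 1 alone and 26 by replicate 3 alone. Many of them were met by a candidate over a smaller part of their length: in replicate 2 only 35 had no overlap at all, in replicate 1 there were 17 and in replicate 3 there were 5. The highest peaks without 50% coverage in replicate 2, singled out after their values were seen, were those of CG3961 (signal value 1187, ranks 125 and 106 in replicates 1 and 3), CG11857 (924, ranks 221 and 246), cu, the gene curled (902, ranks 174 and 293), AnxB10, an annexin gene (884, ranks 325 and 240), and mgl, for a low-density lipoprotein receptor family protein (866, ranks 259 and 311). A single peak, at CG7737, had 50% coverage in none of the 3 lists. Across the 1324 peaks covered in all 3, Spearman's rho of the ranks was 0.81 for replicates 1 and 2, 0.88 for replicates 1 and 3 and 0.80 for replicates 2 and 3, as a description over peaks that share their libraries.

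When the class was rebuilt from each replicate's own summits, it was more frequent among strong candidates than among weak ones. Single-gene promoter summits made up 17.9%, 20.1% and 18.9% of the top lists of replicates 1, 2 and 3 (1462, 1639 and 1544 summits), against 12.2% ± 0.555 of the lower candidates (SD, n = 3). The ranges did not overlap, and the difference was 6.73 ± 1.12 percentage points (SD, n = 3; exact sign-flip permutation test, two-sided p = 0.25), with the top list higher in 3 of 3 replicates. Shared promoter summits fell off more steeply, with 11.9% ± 1.16 of the top lists and 3.31% ± 0.306 of the lower candidates (SD, n = 3).

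Summits of the single-gene promoter peaks lay mostly upstream of their nearest start site. The median was −176 bp from the nearest start site (quartiles −297 and −54 bp), with 1192 summits upstream, 283 downstream and 1 on the start site itself. In the replicates' own top lists the medians were −180, −138 and −173 bp (−164 ± 22.5, SD, n = 3), with 79.4% ± 4.51 upstream. Replicate 2 lay nearest to the start site and had the smallest share upstream, 74.2%, with 6.83% of its summits in the first 50 bp downstream of the start site, where replicate 1 had 2.94% and replicate 3 had 3.24%. The cause of this difference was not tested. In the lower candidates the median was −75.3 ± 13.6 bp and the share upstream 61.5% ± 1.80, so the upstream position was more marked among strong candidates in 3 of 3 replicates.

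The shared promoter peaks were tighter around the start site. In the replicates' own lists the median was −164 ± 22.5 bp for single-gene promoter peaks, against −94.7 ± 10.1 bp for shared promoter peaks (SD, n = 3), and the ranges of the 3 replicates did not overlap. Within 100 bp of the start site lay 302 of the single-gene promoter peaks, 20.5%, and 43.5% of the shared ones. Several genes near a summit also give it more start sites to be near to, so part of this difference is built into the classes. Genes with 1 annotated start site gave 535 single-gene promoter peaks with a median of −171 bp, 86.2% of them upstream, and genes with several start sites gave 941 with a median of −180 bp, 77.7% upstream.

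**Figure D2:**
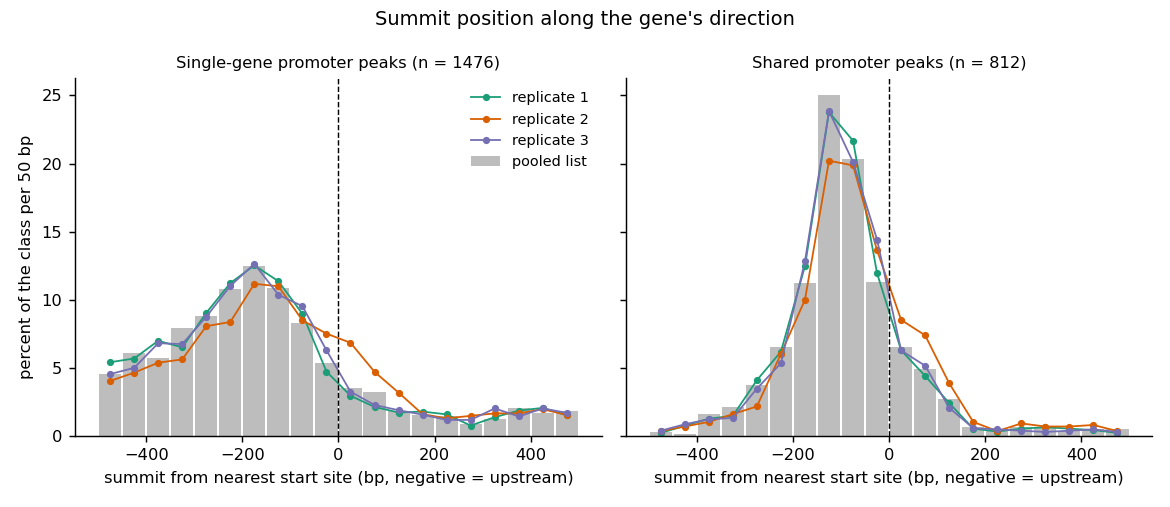
Share of summits per 50 bp against the distance in bp from the nearest start site along the gene's direction, for single-gene promoter peaks (left) and shared promoter peaks (right), with bars for the pooled list and lines for the top list of each replicate. The single-gene class is broad with its median at −176 bp, the shared class is narrow with 43.5% of its summits within 100 bp, and replicate 2 holds more summits just downstream of the start site in both.

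Position and signal went together among the single-gene promoter peaks. The 289 with the summit over 200 and up to 300 bp upstream had a median signal value of 222, and the 344 over 100 and up to 200 bp upstream had 216, against 126 for those from the start site to 100 bp downstream. Of the peaks in that downstream stretch 47.5% were in the top list of all 3 replicates, which was the lowest share of any 100 bp stretch, and the median GC within 50 bp of the summit was 42.6%, which was the highest. All 4 stretches beyond 100 bp upstream had a median GC of 31.7%, where the 6 chromosome arms together have 42.2%. Over the whole class the median GC was 33.7%, against 31.7% for shared promoter peaks and 31.7% for all optimal peaks, and the median width was 420 bp in each.

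**Figure D3:**
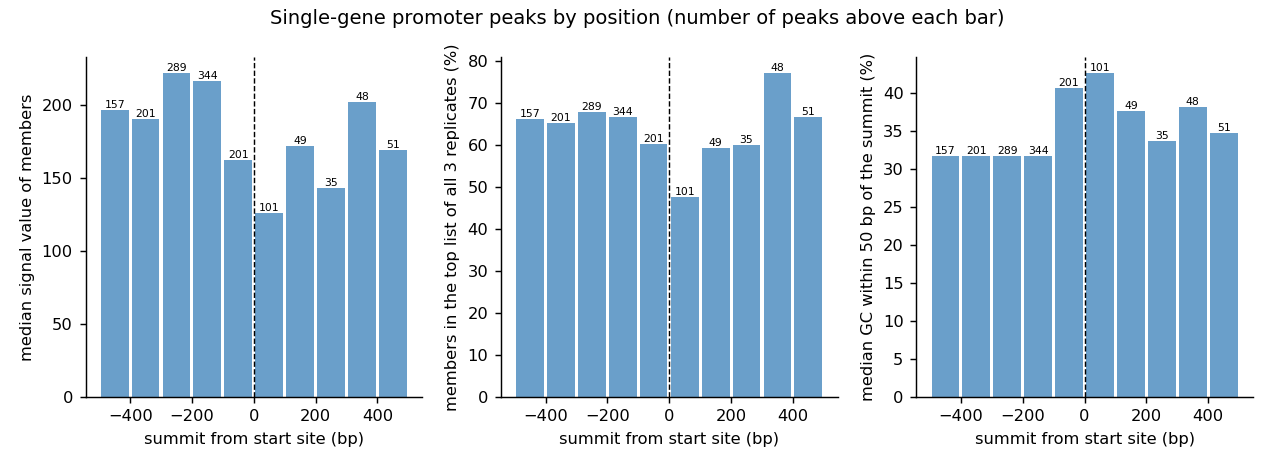
Median signal value (left), share of peaks in the top list of all 3 replicates (middle) and median GC within 50 bp of the summit (right) for single-gene promoter peaks in stretches of 100 bp around the start site, with the number of peaks above each bar. Signal and recovery are lowest, and GC is highest, in the stretch from the start site to 100 bp downstream.

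By the annotation, 751 of the summits, 50.9%, lay upstream of and outside the gene they were assigned to, and 514, 34.8%, lay in one of its introns. A further 202, 13.7%, lay in a 5' UTR, 8 in a coding exon and 1 in a 3' UTR. The intronic summits had a median signal value of 213, against 183 for those outside the gene and 141 for those in a 5' UTR. Another protein-coding gene overlapped 76 of the 751 summits upstream of the gene, although no start site of it lay within 1 kb.

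The genes behind these peaks were long and had many start sites. The 1208 genes are 8.66% of the 13945 protein-coding genes. Restricted to genes with a start site that no other gene's start site approaches within 1 kb, 1194 of 8770 carried a peak, 13.6%. Median gene length was 7044 bp for genes with such a peak and 2152 bp for the other genes that could have one, and the mean number of start sites was 2.26 and 1.39. Of the genes with 1 start site 8.05% carried a peak (Wilson interval 7.40 to 8.76%), with 2 start sites 19.8% (17.9 to 21.8%), and with 3 or more 37.3% (34.3 to 40.3%). A gene with more start sites offers more positions that meet the rule, so these shares are not per promoter. Other optimal peaks lay inside 40.1% of the genes with a single-gene promoter peak and inside 9.81% of the other eligible genes.

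Some genes carried several of these peaks. There were 996 genes with 1 such peak and 212 with several, which together held 480 peaks. In 137 of the 212 the peaks lay nearest to different start sites, and in the other 75 they shared 1. Ptpmeg2, which encodes a protein tyrosine phosphatase, has 6 annotated start sites and had 6 peaks nearest to 5 of them, with signal values of 1309, 1138, 706, 556, 203 and 104. Rtnl1, with 7 annotated start sites, had 5 peaks nearest to 4 of them, of which 2 were different summits of 1 interval, with signal values of 1531, 580, 495, 299 and 203. The peaks of dnc, which encodes a cAMP phosphodiesterase needed in memory, numbered 5, nearest to 4 of its 9 start sites, and had signal values of 1170, 797, 289, 254 and 94.9. Strong and weak promoter peaks thus stood side by side in each of these 3 genes.

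Genes on the X chromosome carried single-gene promoter peaks more often than those on the other large arms. Of 1484 eligible X genes 266 had one, 17.9% (Wilson interval 16.1 to 20.0%), against 13.2% on 2L, 12.7% on 3L, 12.5% on 3R and 12.4% on 2R. In the replicates' own top lists X had 16.4%, 18.0% and 18.9%, and no other large arm passed 14.5% in any replicate, so the ranges did not overlap. On chromosome 4, 13 of 65 eligible genes had one, 20.0% (12.1 to 31.3%), an interval that reaches from the level of the large autosomal arms to above that of X. In the higher-signal 50% of the list the difference between X and all other arms was 2.84 percentage points, against 5.19 in the whole list. The animals were males and females pooled.

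Sequence words at the summits differed between the classes, and 12 words were counted on both strands in windows of 50 bp either side of the summit. Single-gene promoter peaks held more GAGAG than shared promoter peaks. In the replicates' own top lists the word was in 11.3%, 17.9% and 12.5% of single-gene promoter windows, against 6.81%, 8.85% and 7.76% of shared promoter windows. Replicate 2 was highest in both classes, and the ranges did not overlap. The difference was 6.10 ± 2.59 percentage points, and 4.61 without replicate 2, and it was positive in 3 of 3 replicates (SD, n = 3; exact sign-flip permutation test, p = 0.25, adjusted p = 0.316 over 24 comparisons). Against all other peaks of the top lists, with 9.56% ± 0.943, it was 4.35 ± 2.64 percentage points, and 2.83 without replicate 2. In the optimal list 184 of the single-gene promoter peaks held GAGAG, 12.5%, with 9.62% for all optimal peaks. Single-gene promoter summits among the lower candidates held it in 16.3% ± 1.98 (SD, n = 3). Replicate 2, highest in GAGAG, also had the summits nearest to start sites.

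The DRE word TATCGATA was rarer in single-gene than in shared promoter peaks and more frequent than elsewhere. It was in 1.23%, 1.22% and 1.42% of single-gene promoter windows of replicates 1, 2 and 3, against 2.72%, 2.50% and 3.46% of shared promoter windows and 0.620% ± 0.119 of all windows other than the single-gene ones. The ranges overlapped in neither comparison (exact sign-flip permutation test, p = 0.25 and adjusted p = 0.316 for each). Single-gene promoter summits among the lower candidates held the DRE word in 1.45% ± 0.362 (SD, n = 3), so it was not particular to the top lists. In the optimal list 21 single-gene promoter peaks held it, 1.42%, with 0.784% for all optimal peaks. Their summits lay at a median of −66 bp, and 16 of the 21 were within 100 bp of the start site, where 5.30% of 302 single-gene peaks held the word and 6.80% of 353 shared ones. In that stretch the replicates' own lists gave 4.26% ± 1.17 for single-gene peaks and 5.36% ± 1.02 for shared ones (SD, n = 3), and the ranges overlapped. GAGAG within 100 bp was in 9.42%, 23.1% and 13.4% of single-gene windows, against 7.80%, 9.63% and 7.33% of shared ones, and each replicate was higher in the single-gene class although the ranges overlapped slightly. Beyond 250 bp, where few shared promoter peaks lie, 78 of 601 single-gene peaks held GAGAG, against 12 of 83 shared ones (14.5%), so the share in the optimal list was lower in the single-gene class there. In the replicates' own lists that stretch gave 14.2% ± 1.85 for single-gene peaks and 10.4% ± 1.01 for shared ones (SD, n = 3). The comparison by distance was chosen after the values had been seen.

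The peaks with the DRE word had signal values of at most 1202. Off arm 2R the highest were those of eEF1gamma (signal value 549, ranks 1142 and 662 in replicates 1 and 3, with no 50% coverage in replicate 2), Rnp4F (408, ranks 1745, 1215 and 1130), RpS10b (384, ranks 2208, 1234 and 1226) and CG2200 (348, ranks 2148, 3611 and 1054). On 2R stood CG1827 (2R 9588741 to 9589092, signal value 1202, ranks 145, 122 and 146) and Alg3, for a mannosyltransferase (701, ranks 404, 627 and 458). The windows of Rnp4F, RpS23 and RpL30, the last 2 ribosomal protein genes, held GGTCACAC, the Motif 1 word bound by M1BP, with summits 5 bp upstream, 5 bp downstream and 8 bp downstream of their start sites.

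The octamer of POU factors was no more frequent in these peaks than in others. ATGCAAAT was in 20 of the 1476 windows, 1.36% (Wilson interval 0.879 to 2.08%), with 1.59% for all optimal peaks, and the replicates' own lists gave 1.36% ± 0.237 for single-gene promoter peaks and 1.40% ± 0.342 for shared ones (SD, n = 3). Its core ATGCAA was in 128, 8.67%, with 10.0% for all optimal peaks. Among the peaks that held the octamer, however, were some of the highest, Hsp27, aay, bbx and CG6330 (signal value 916, ranks 269, 168 and 299). The homeodomain word TAATTA was rarer, in 8.69%, 7.38% and 8.55% of single-gene promoter windows against 13.4%, 10.2% and 12.5% of shared promoter windows, with no overlap of the ranges, and in the optimal list 126 peaks held it, 8.54%, with 10.1% for all optimal peaks.

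Core promoter words differed in direction. TATAAA, the TATA box word, was in 18.3%, 15.8% and 20.1% of single-gene promoter windows, against 24.5%, 19.3% and 25.2% of shared promoter windows. Each replicate was lower in the single-gene class, although the 2 ranges overlap, and in the optimal list 279 peaks held it, 18.9%, with 22.2% for all optimal peaks. TCAGT, the Initiator word, was in 18.0% ± 1.12 of single-gene and 15.8% ± 1.38 of shared promoter windows (SD, n = 3) and in 274 optimal single-gene peaks, 18.6%, with 18.0% for all optimal peaks. Motif 1 was in 14 single-gene peaks, 0.949%, with 0.527% for all optimal peaks, and CAGCTG, an E-box word of core promoters, in 61, 4.13%, with 2.68% for all optimal peaks. CAGCTG was in 4.00% ± 0.647 of single-gene promoter windows in the replicates' own lists, against 4.68% ± 0.450 of shared promoter windows and 2.62% ± 0.429 of all windows other than the single-gene ones (SD, n = 3). Single-gene promoter summits among the lower candidates held CAGCTG in 4.77% ± 0.0594 (SD, n = 3).

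The remaining 3 words were rare. CACGTG, the E-box word of Myc, was in 10 single-gene peaks, 0.678%, with 0.576% for all optimal peaks. AGGTCA, a word of nuclear receptors, was in 32, 2.17%, with 1.92% for all optimal peaks. CAGGTAG, the word of the early embryonic factor Zelda, was in 5, 0.339%, with 0.343% for all optimal peaks. Of the 12 words 2 were higher in single-gene than in shared promoter windows in 3 of 3 replicates, 8 were lower in 3 of 3 and 2 were mixed, and none of the 24 comparisons had an adjusted p under 0.316 (exact sign-flip permutation tests, Benjamini-Hochberg adjusted). A match is a description of letters and not a bound site.

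**Figure D4:**
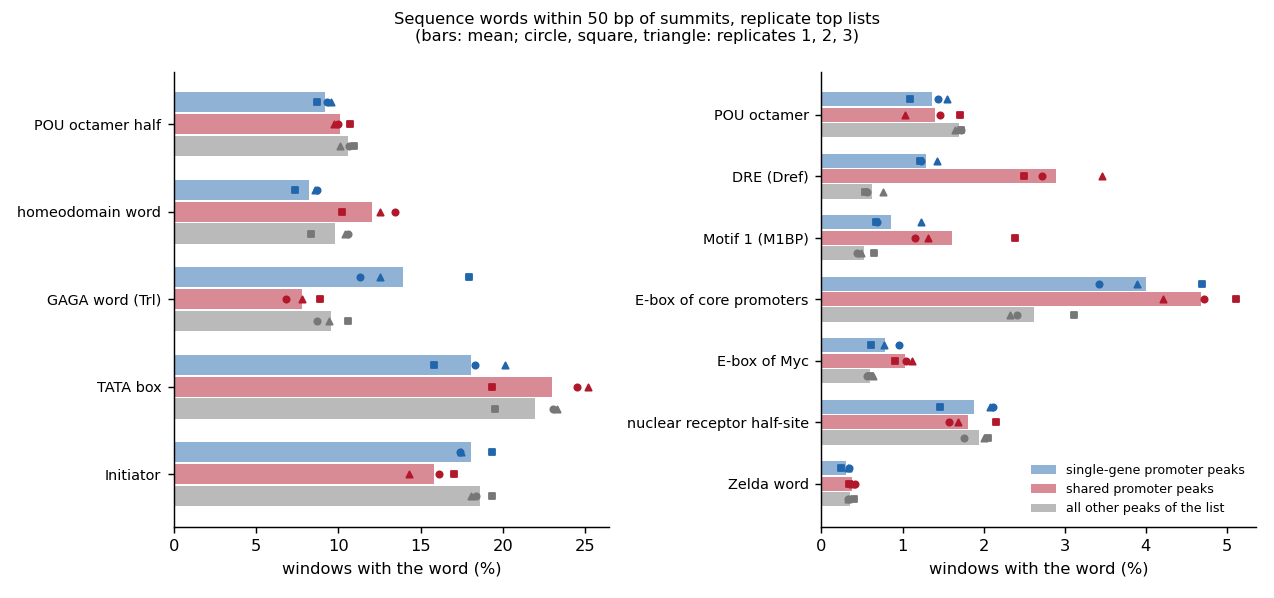
Percent of summit windows (50 bp either side) that hold each of 12 sequence words in the top list of each replicate, for single-gene promoter peaks (top bar of each set), shared promoter peaks and all other peaks, with bars for the mean and 1 symbol per replicate. GAGA words are at 13.9% in the single-gene class and 7.81% in the shared class, and DRE words at 1.29% and 2.89%.

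The promoters behind the peaks were read as well, from 250 bases before to 50 after each start site that no other gene's start site approaches within 1 kb. Of the 1349 start sites nearest to a single-gene promoter peak 52.0% held GAGAG, against 36.0% of the 10858 without such a peak and 37.7% of all. Rebuilt from the replicates' own lists the shares were 49.3%, 54.1% and 48.5% with a peak, against 36.3%, 35.5% and 36.3% without, so every replicate showed the difference. CAGCTG was in 19.1% with a peak and 15.5% without (15.9% of all), and GGTCACAC in 5.26% and 3.75% (3.92% of all). TATAAA was in 34.4% with a peak and 40.4% without (39.7% of all), TAATTA in 14.5% and 17.2% (16.9% of all), and TATCGATA in 4.00% and 4.72% (4.64% of all). The octamer ATGCAAAT was in 2.82% with a peak and 3.57% without (3.49% of all). Median GC of these windows was 42.2% with a peak and 40.5% without, and the part of GC in these differences was not tested.

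Gene function was read from 25 lists of genes, beside the 8.66% of all protein-coding genes that carried a single-gene promoter peak. In 16 lists the share was above that value, and in 4 lists it was 0. The lists differ in how many start sites their genes have, which moves with the share, so the mean number of start sites, 1.41 over all genes, is given for the leading lists. Only peaks at a single gene are counted, and a gene whose neighbour starts within 1 kb can fall outside by that alone. Eligible genes were 33 of 34 in the axon guidance list, but 13 of 73 among mitochondrial ribosomal protein genes. Of all eligible genes 13.6% carried a peak.

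Clock and ecdysone genes often carried a peak in the pooled list. Of the 15 circadian clock genes 7 carried a peak, 46.7% (Wilson interval 24.8 to 69.9%, mean of 2.80 start sites), with 33.3%, 33.3% and 46.7% in the replicates' own lists. They were sgg, the GSK3 kinase gene (signal value 1043, ranks 192, 199 and 206), cry, for the blue light receptor cryptochrome (404, ranks 1088, 1259 and 1542), vri, for a repressor of Clk (340, ranks 1750, 1969 and 1582), dco, for the kinase doubletime (164, ranks 5162, 4015 and 4883), and per, Pdp1 and CkIIalpha. The excess of the clock list over all genes was 38.0 percentage points, but 15.0 in the higher-signal 50% of the list. Among optimal peaks in the top lists of 2 replicates it was 13.6 for replicates 2 and 3. For replicates 1 and 3 it was 19.7, and for replicates 1 and 2 it was 20.5. This filter kept 1050, 1134 and 1025 of the 1476 peaks. The optimal list stayed pooled from all 3 replicates, so these values do not show a replicate removed. Of the 23 ecdysone response regulators 9 carried a peak, 39.1% (22.2 to 59.2%, mean of 2.87 start sites), with 30.4%, 30.4% and 39.1% in the replicates' own lists. Eip75B, a nuclear receptor gene, was highest (signal value 724, ranks 456 and 547 in replicates 1 and 3, with no 50% coverage in replicate 2). Eip63E, a cyclin-dependent kinase gene (289), Eip74EF, an ETS factor gene (286), and gce, for a juvenile hormone receptor (268), followed, with EcR, the ecdysone receptor gene, br, Eip93F, Hr78 and crol.

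Signalling and cell recognition lists held further such genes. Axon guidance and adhesion genes had 13 of 34, 38.2% (23.9 to 55.0%, mean of 1.82 start sites), but 26.5%, 44.1% and 35.3% in the replicates' own lists, the widest spread of any list here. Its excess over all genes, 29.6 percentage points, was 3.80 in the higher-signal 50% of the list. Among optimal peaks in the top lists of both replicates 1 and 2 this excess was 17.3. The highest were unc-5, a netrin receptor gene (signal value 563), PlexA, a semaphorin receptor gene on chromosome 4 (272, ranks 2421, 8421 and 1785), Nrt, for neurotactin (164), and Toll-7. Wnt, Hedgehog, BMP and Hippo genes had 13 of 37, 35.1%, among them sbb, for a nuclear repressor (822), shn, for a zinc-finger protein of BMP signalling (281), kibra, a Hippo pathway gene (180), and arm, the beta-catenin gene (151). The excess of this list over all genes, 26.5 percentage points, was 3.09 in the higher-signal 50% of the list. Among optimal peaks in 2 top lists it was 12.5 for replicates 2 and 3. For replicates 1 and 3 it was 14.7, and for replicates 1 and 2 it was 10.0. Notch pathway genes had 8 of 25, 32.0%, with gro, the Groucho corepressor gene (1185, ranks 147, 124 and 151), numb, for an inhibitor of Notch (468), and the repressor genes E(spl)m3-HLH (626, no 50% coverage in replicate 2) as well as E(spl)m7-HLH (473, covered in replicate 3 alone). The Notch list also holds Nrt, which it shares with the adhesion genes although neurotactin is an adhesion protein, and Nrt is counted among the 8. Delta did not match by its symbol and is not in the list. Insulin and TOR genes had 5 of 20, led by REPTOR, for a TOR-controlled transcription factor (1284, ranks 104, 113 and 131), sgg, Pi3K21B (522) and foxo (250). JAK/STAT and EGFR genes had 5 of 23, 21.7%, all of them EGFR pathway genes: spi, a ligand (959), aos, an inhibitor (396), aop, a repressor (277), pnt, an activator (188), and rho.

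Tissue lists were mixed. Fat body and lipid genes had 9 of 24, 37.5% (21.2 to 57.3%, mean of 2.04 start sites), with Lpin, Hnf4, a nuclear receptor gene (384), Mtp, for a lipid transfer protein (383), and foxo highest. POU factors and neural fate regulators had 10 of 32, 31.3%, with elav, a neuronal RNA-binding protein gene (1136, ranks 175, 211 and 117), grh (413), mamo (387) and hb (306). Muscle genes had 3 of 23, namely sls (496), Tm1 (243) and Zasp52 (91.3), although their mean number of start sites was 2.74. Neuronal excitability and synapse genes had 1 of 30, 3.33%, which was dnc, with a mean of 2.43 start sites. Heat shock proteins and cochaperones had 5 of 23, 21.7%, with Hsp27, Hsp26 (762), stv (448) and Hsp60A (227) highest.

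Housekeeping lists parted. Cytosolic ribosomal protein genes had 17 of 93, 18.3% (11.7 to 27.3%), with RpL24 (418), RpS10b, RpS4 (377) and RpL17 (290) highest and a summit within 32 bp of the start site in each of these 4, and 35 more of the 93 had shared promoter peaks only. Mitochondrial ribosomal protein genes had 0 of 73, while 25 had shared promoter peaks, and proteasome genes had 0 of 32, with 3 shared. Only 13 of these 73 and 11 of these 32 were eligible, with a start site that no other gene's start site approaches within 1 kb. Of the 93 cytosolic ribosomal protein genes 39 were eligible, and 16 of the 39 carried a peak, 41.0%. The upper Wilson bound for the proteasome genes, taken over all 32, is 10.7%. In replicate 1's own list 3.13% of the proteasome and 1.37% of the mitochondrial ribosomal protein genes carried a peak. Oxidative phosphorylation genes had 3 of 78 (SdhD, ND-B22 and UQCR-11), translation factors and tRNA synthetases 5 of 83 (with eIF2beta, eEF1alpha1 and eEF2 beside eEF1gamma), and autophagy genes 1 of 20 (Atg8a). Of their eligible genes these were 3 of 34 (8.82%), 5 of 36 (13.9%) and 1 of 6 (16.7%), against 13.6% of all eligible genes. The translation and autophagy lists were thus not below all eligible genes. Cell cycle genes had 5 of 35, 14.3%, with Dp (491), fzr (253), E2f1 (231) and CycD (143) highest. Polycomb and trithorax genes had 3 of 27, 11.1%, namely ph-p, its neighbour ph-d (290) and Su(z)2 (91.4). Insulator and interband genes had 2 of 17, 11.8%, BEAF-32 (278) and JIL-1 (194). In the replicates' own lists the insulator and interband share was higher, 23.5%, 29.4% and 23.5%, against 9.15% ± 0.370 of all genes (SD, n = 3). Cell death genes had 3 of 16, 18.8%: hid, an activator of apoptosis (955, ranks 195, 288 and 248), Debcl (160) and Diap1, the caspase inhibitor gene (97.7).

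Among gene families of differentiated tissues, the cuticle protein and chemoreceptor lists had none in the pooled list. Cuticle protein genes had 0 of 97 and chemoreceptor genes 0 of 180, with upper Wilson bounds of 3.81% and 2.09%, and in single replicates' own lists at most 1.03% and 0.556%. These genes mostly have 1 start site, with means of 1.10 and 1.12. Cytochrome P450 genes had 6 of 86, 6.98%, with Cyp310a1 (386), Cyp6v1 (359), Cyp6a2 (272) and Cyp6t1 (221) highest. The Wilson interval, 3.24 to 14.4%, includes the 8.66% of all genes. Of the 76 eligible cytochrome P450 genes 7.89% carried a peak, against 13.6% of all eligible genes. Chromatin came from whole animals, so a promoter bound in few cells and one bound weakly in many cannot be told apart.

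**Figure D5:**
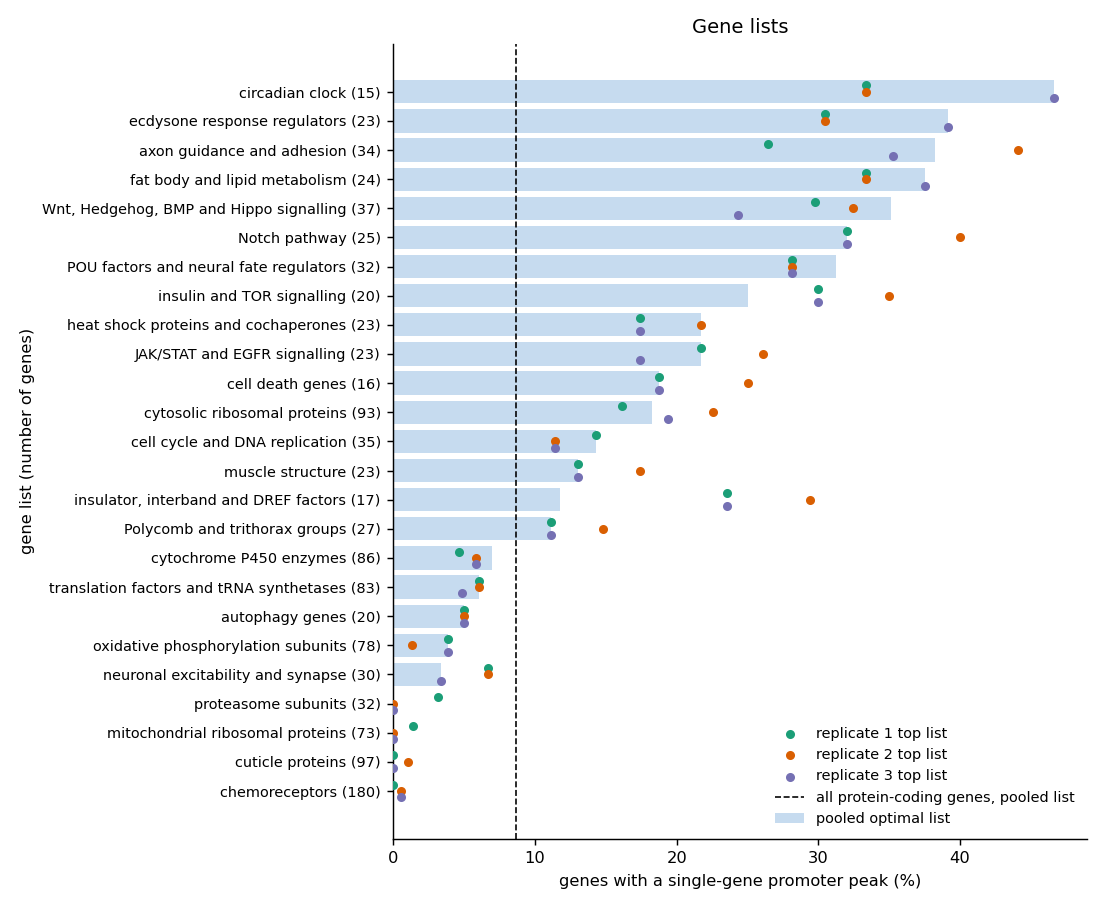
Percent of the genes of 25 lists that carry a single-gene promoter peak, with bars for the pooled optimal list, points for the top list of each replicate and a dashed line at the 8.66% of all protein-coding genes. Clock genes are at 46.7%, and chemoreceptor and cuticle protein genes are at 0 in the pooled list.

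The gene pdm3 itself carried 1 of these peaks, at 2R 8327185 to 8327604, with the summit 95 bp upstream of its start site and a signal value of 253. It ranked 4559, 1095 and 4787 in replicates 1, 2 and 3, so replicate 2 placed it far higher than the others. The GC of its window was 49.5%, against a median of 33.7% over the class. A further 6 optimal peaks had pdm3 as the nearest gene, with summits 3930 to 19519 bp upstream of the nearest of its start sites. The one at 2R 8379276 to 8379695 lay inside the gene, upstream of an internal start site. Counting all optimal peaks other than single-gene promoter peaks, 5 had summits inside pdm3, this one included. The rest of those 5 were nearest to start sites of other genes. The highest of the 6 had a signal value of 361, above that of the promoter peak, but a rank in replicate 2 alone (1769). The gene was tagged in these animals by a transgene, and whether that construct adds to the signal at the pdm3 promoter was not tested.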

How the data were processed

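ChIP-seq of pdm3-GFP was done on 3 biological replicates of 1 group, and the replicate numbers come from the labels. The authors deposited peak lists on dm6, with a signal value for each peak of unstated scale and normalization, 1 pooled list of reproducible peaks and 1 candidate list per replicate. The file names and readme give the kind of list, while aligner, caller and reproducibility threshold were not given in the sources used here. Lists on dm3 were not used, and depth per library is unknown.

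Start sites are those of 13945 protein-coding genes of Ensembl release 115 on 6 chromosome arms (19607 start sites), and sequence is RefSeq's for the same assembly. A pooled peak counted as covered where a replicate's peaks overlapped at least 50% of its length. Replicate differences were tested with an exact sign-flip permutation test, Benjamini-Hochberg adjusted over the 24 word comparisons, and shares carry 95% Wilson intervals. Named genes are the 25 highest peaks covered in all 3 lists, up to 4 highest genes of each gene list, the 6 highest peaks with the DRE word and up to 4 for each other word, the 3 genes with most peaks, the 3 peaks on each side of the 500 bp limit, and pdm3. Further genes of a list are named without values. The members, gene lists and words were chosen with earlier results of these data known. Of 414 listed symbols 10 matched by synonym and 7 did not match. The scripts were tested on simulated data and ran in Python 3.11.15 with scipy 1.17.1, numpy 2.4.6, matplotlib 3.10.9 and pandas 2.3.3. Alternatives covered the start-site and single-gene distances, annotation, overlap, signal, window width, class source and each replicate left out. For ranks, coverage, shares in top lists and words, leaving a replicate out averaged the values of both others. For counts, positions and gene lists it kept the optimal peaks in the top lists of both others, with the list still pooled from all 3.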

Additional observations from a re-analysis of the deposited data

How the results depend on the processing

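Across the alternatives 66 summary values kept their direction, or for counts stayed within 1.5 times, 5 moved and 5 reversed. Of the values for single words or gene lists 262 kept their direction and 20 reversed. The class of 1476 peaks came to 875 with a start-site distance of 250 bp, 786 in the higher-signal 50% of the list, where its share was 19.3%, and 950 among peaks in the top list of all 3 replicates. With RefSeq's annotation the class was the same 1476 peaks, and with gene 5' ends as the only start sites it came to 988. Coverage by top lists minus that of shared promoter peaks reversed to 1.92 percentage points in the higher-signal 50%. Coverage minus that of all other peaks reversed to −0.899 with 250 bp, −0.715 with 80% overlap and −0.211 in the higher-signal 50%, and lay from −0.159 (without replicate 2) to 2.31 with a replicate left out. With classes taken from the optimal list 5 words were higher than in shared promoter peaks, against the 2 that were higher in every replicate list. Rare words reversed, in percentage points: ATGCAAAT minus shared gave 0.0121 in windows of double width, 0.247 with classes of the optimal list and −0.317 to 0.248 with a replicate left out; AGGTCA minus shared gave −0.0667, −0.198 within 100 bp of the start site and −0.152 to 0.469; AGGTCA minus all other peaks gave 0.148 in wider windows, 0.299 with optimal classes and −0.263 to 0.212. CAGGTAG minus shared gave 0.0323 and 0.0924 under the same settings and minus all other peaks −0.0815 to 0.00262. TCAGT minus all other peaks gave 0.636 with optimal classes. Within 100 bp of the start site, an alternative chosen after seeing the data, CAGCTG minus shared gave 1.81 and CACGTG minus shared 0.406. Among gene lists minus all genes, cytochrome P450 genes gave 0.794 in the higher-signal 50% and cell cycle genes −2.96 with 250 bp. Polycomb and trithorax genes gave −3.25 to 1.20 among optimal peaks in the top lists of 2 replicates. In these alternatives the differences for the GAGA, DRE, homeodomain and TATA words, for rank and for the share in top lists kept their direction but not always their size, with a rank difference from shared promoter peaks of 73.0 in the higher-signal 50%. The exception is GAGAG beyond 250 bp in the optimal list. Some excesses over all genes were smaller among optimal peaks in the top lists of 2 replicates. The share of all genes was smaller there too, so these excesses do not have the same base as those with all peaks. For replicates 2 and 3, fat body genes had 18.6 percentage points (28.8 with all peaks) and heat shock genes 6.67 (13.1 with all peaks). For replicates 1 and 3, cell death genes had 5.55 (10.1 with all peaks). The causes of these changes were not tested. No paired analysis was possible between sample groups because all 3 replicates belong to 1 group, and the differences between peak classes were taken within each replicate. Depth is unknown, so what it limits cannot be given.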
